A study of Mus musculus with 3 samples.

Results

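The adaptors that bring the Ccr4-Not deadenylase to mRNA were followed through a doxorubicin time course of B16 cells, a mouse melanoma cell line. Cnot7 and Cnot8, which are among the catalytic subunits of Ccr4-Not, were followed with them. The set held 10 listed genes, namely Zfp36, Zfp36l1, Zfp36l2, Btg1, Btg2, Btg3, Tob1, Tob2, Cnot7 and Cnot8, and every probe set annotated to them was used, 24 of the 45101 on the array. Of the 10 genes, 9 had a probe set of their own, and 9723 genes in all passed the expression filter. Cells grown in medium with serum received 1 µg/ml doxorubicin, a DNA-damaging chemotherapy drug that traps topoisomerase II on DNA, and were profiled at 0 h, 2 h and 4 h. Titles and treatment text give B16 cells and doxorubicin for all samples, while the description field has BMDM and the later samples are also marked ET, a conflict the labels do not resolve. Each time point was 1 Affymetrix Mouse430_2 array, with no replicate and no untreated culture at 2 h or 4 h. Differences therefore have no replicate check, and effects of the drug and of elapsed time cannot be told apart. The genes were chosen with their values on these arrays already known, so their ratios are a description and no test was made.

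The Ccr4-Not complex shortens the poly(A) tail of mRNA, the first step in the decay of most transcripts. Zfp36, also called tristetraprolin, and its paralogs Zfp36l1 and Zfp36l2 are zinc finger proteins that bind AU-rich elements and recruit the complex to those mRNAs. The Btg and Tob proteins share a domain that binds Cnot7 and Cnot8 directly, and they are known as inhibitors of cell proliferation. Many of these adaptors are made from short-lived mRNAs of the immediate early class, and Btg2 is a known target gene of p53.

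Signals were scaled to a 2% trimmed mean of 500 on each array, and a signal under the floor of 100 was set to 100 before log2 was taken. A gene stood on its brightest probe set among those that passed, and a call is a difference of at least 2-fold. As a yardstick for the arrays, the SD of log2 ratios between probe sets of 1 gene, pooled over 3905 genes, was 0.40 for the 2 h to 0 h ratio, 0.48 for the 4 h to 0 h ratio and 0.38 for the 4 h to 2 h ratio. This probe-level SD leaves out variation between cultures and arrays. It also fell with signal. For mean signals of 200 to 336 it was 0.59 at 2 h and 0.70 at 4 h, both over 0 h. From 1518 up it was 0.21 and 0.24. The pooled value is used throughout, so it is narrow for dim probe sets and wide for bright ones. Probe sets differ in affinity, so the levels of members were compared over time within a probe set and not between genes.

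Of 15 pigment cell markers, 14, 12 and 13 reached a signal of 200 at 0, 2 and 4 h, and their median signal was 8401, 2640 and 1196. That median does not follow the same gene over time. For the 12 markers that passed the filter, the median log2 ratio was 0.10 at 2 h and 0.19 at 4 h. Of these, 2 were at least 2-fold lower at 2 h (5.69% of all genes) and 4 at 4 h (14.4%). Tyrp1, Pmel and Gpnmb, genes of the melanosome, were the brightest pigment cell markers, and Tyrp1 had signals of 42568, 44083 and 47128 at 0, 2 and 4 h. Since the description label gives BMDM, commonly short for bone marrow-derived macrophages, 15 macrophage markers were read, of which 7, 6 and 6 reached 200. Their summed signal was 4953, 5491 and 6073, and that of the pigment cell markers 217680, 234078 and 233264, sums over different probe sets that describe each list only. Of the macrophage sum, the lysosomal protein gene Cd68 gave 1884, 3044 and 3699, the receptor gene Csf1r 522, 424 and 376, and the lysozyme gene Lyz2 372, 414 and 398, all above 200 on every array. The macrophage markers Itgam, Ptprc, Aif1 and Marco, named here on their values, were under the floor on every array, though none was at exactly 0. Of 9 fibroblast markers 4 reached 200 at each time, and their summed signal was 4133, 4331 and 4339. The collagen gene Col1a1 had 1702, 2253 and 2109, Postn 766, 788 and 1091, and the collagen gene Col1a2 731, 478 and 304. The median signal over all probe sets was 154, 136 and 126 at 0, 2 and 4 h. The arrays were washed in fluidics modules 3, 4 and 1, so module and time cannot be told apart. The part of these values in the results was not tested.

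At 4 h, Tob1, Btg1 and Zfp36l2 were the lowest genes of the set against 0 h, each more than 8-fold below its starting signal on its brightest probe set. Zfp36 and Btg2 were lower by a little over 2-fold, and Zfp36l1, Tob2, Cnot7 and Cnot8 by less. No member was 2-fold higher on the probe set that stands for it in any of the 3 comparisons of times. Of the 9 genes, 5 were at least 2-fold lower at 2 h, against 5.69% of all genes, and 5 were at 4 h, against 14.4% of all genes. The 4 h to 2 h ratio was 2-fold lower or more for 3 members, against 5.41% of all genes. A 4-fold lower signal was read for 1 member at 2 h (0.72% of all genes), 3 at 4 h (3.1%) and 1 between 2 h and 4 h (0.391%), and no member was 4-fold higher (0.103%, 0.144% and 0.0206% of all genes). The shares of all genes at least 2-fold higher were 1.41%, 2.32% and 0.843% in the same comparisons. Nothing is read from these member counts beside the shares, because the genes were chosen on the same arrays. The count at 4 h depended on the scaling of arrays, being 3 with equal medians or quantile normalization and 8 with scaling to the spike-in controls. The share of all genes moved with it, to 8.95%, 10.2% and 22.7% in that order.

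**Figure D1:**
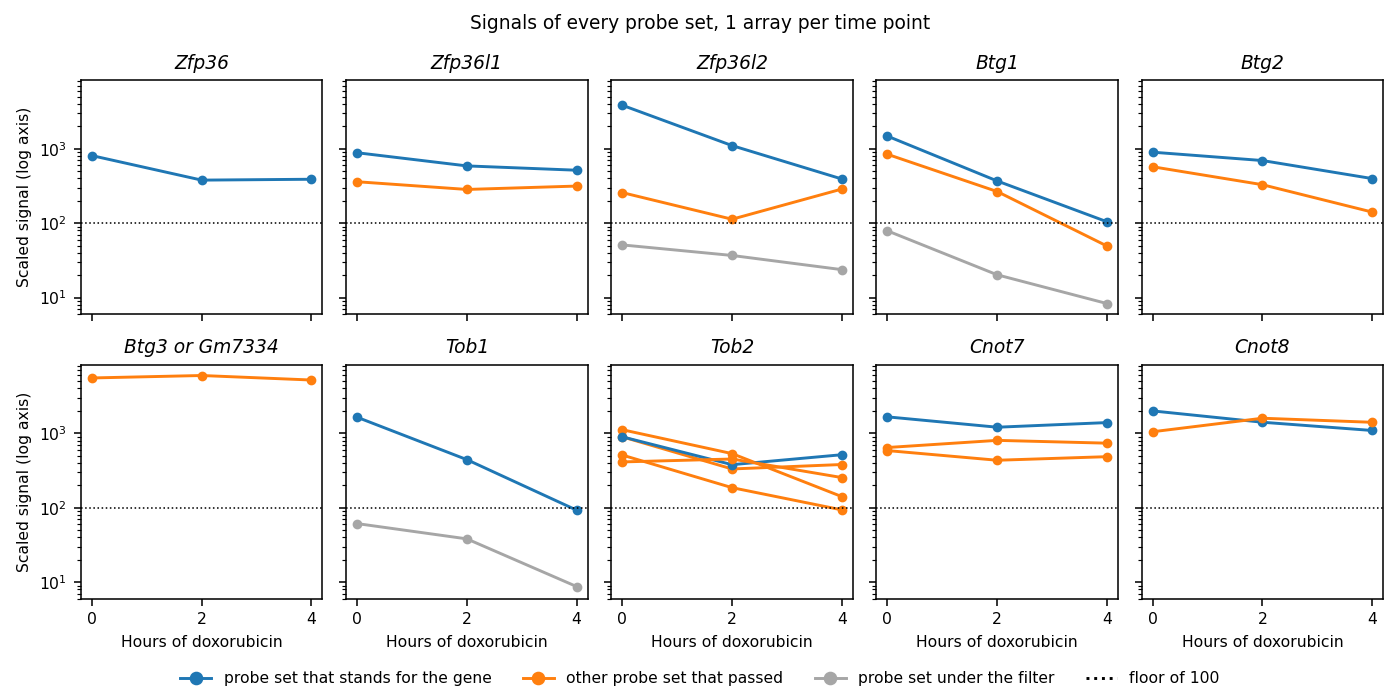
Scaled signal (log axis) of each probe set against hours of doxorubicin, 1 panel per gene, with 1 array per time point and a dotted line at the floor of 100. Tob1, Btg1 and the brightest Zfp36l2 probe set decline at each step, the Tob2 probe sets part after 2 h, and the probe set shared by Btg3 and Gm7334 stays between 5198 and 5977.

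The promoters of Tob1 and Btg1 are shown because they belong to the lowest genes of the set, and that of Btg2 because among the genes with a window it alone holds a full cAMP response element. They are the 250 bases before a RefSeq start site in GRCm38.p6, with TATAAA and TGACG on either strand in capitals, TGACG being printed as CGTCA where it lies on the opposite strand. The Tob1 window is chr11:94211204-94211453 on the plus strand, the Btg1 window chr10:96616751-96617000 on the plus strand and the Btg2 window chr1:134079156-134079405 on the minus strand. The Tob1 window lies inside the annotated gene span, which begins at 94209842, while those of Btg1 and Btg2 abut their spans.
Tob1: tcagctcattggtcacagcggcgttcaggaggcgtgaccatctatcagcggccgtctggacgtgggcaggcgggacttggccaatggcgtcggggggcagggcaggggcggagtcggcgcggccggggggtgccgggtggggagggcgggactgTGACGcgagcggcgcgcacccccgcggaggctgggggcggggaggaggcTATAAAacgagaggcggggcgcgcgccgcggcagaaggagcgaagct
Btg1: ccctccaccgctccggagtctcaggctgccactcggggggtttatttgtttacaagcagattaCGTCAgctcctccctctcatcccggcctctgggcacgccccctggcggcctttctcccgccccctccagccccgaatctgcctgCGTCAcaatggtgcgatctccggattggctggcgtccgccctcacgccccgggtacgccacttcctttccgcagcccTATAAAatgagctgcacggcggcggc
Btg2: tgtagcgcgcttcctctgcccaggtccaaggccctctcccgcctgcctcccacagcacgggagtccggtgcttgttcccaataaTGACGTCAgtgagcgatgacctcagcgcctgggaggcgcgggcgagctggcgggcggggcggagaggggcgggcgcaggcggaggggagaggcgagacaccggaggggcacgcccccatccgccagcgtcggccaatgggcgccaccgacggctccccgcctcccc

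RefSeq windows were found for 8 of the 10 genes, 12 windows in all, and Zfp36l2 and Cnot7 have none in the table. The TATA box letters TATAAA occurred in the windows of Btg1, Tob1 and Zfp36l1, 3 of 12 windows, against 12.4% of 32851 windows of the same length and 6.56% of the windows of genes that passed the filter. In Btg1 they began at position -26 from the start site and in Tob1 at -47. TGACG, the core of the cAMP response element, was in 4 of 12 windows, those of Btg1, Btg2, Tob1 and 1 of the windows of Cnot8, against 17.8% of all windows and 27.1% for genes that passed. The full element TGACGTCA, which contains TGACG on both strands, was in the Btg2 window at position -166. It was in 1.55% of all windows and 2.61% of those of genes that passed. CCAAT was in 6 of 12 windows, against 33.8% of all windows and 35.0% of those of genes that passed. GGGCGG was in 8 of 12, against 32.7% and 57.8% in the same order. Each motif was searched on both strands, and a match is a run of letters only.

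Among the AU-rich element binders, Zfp36l2 was the one far below its 0 h signal. Its brightest probe set had signals of 3838, 1102 and 392 at 0, 2 and 4 h, which is 3.48-fold lower at 2 h and 9.79-fold lower at 4 h (log2 ratios -1.80 and -3.29). The decline was spread over both intervals, at -1.80 in the first and -1.49 in the second. A dimmer Zfp36l2 probe set did not follow it, with 258, 113 and 287, 2.28-fold lower at 2 h and at a log2 ratio of 0.16 at 4 h. The SD over these 2 probe sets was 0.43 at 2 h and 2.44 at 4 h, so the gene's value at 4 h rests on which probe set is read.

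Zfp36, which limits inflammatory mRNAs such as that of Tnf, had signals of 808, 379 and 389 on its 1 probe set. At 2 h it was 2.13-fold lower and at 4 h 2.08-fold, and the change between 2 h and 4 h, 0.04 on the log2 scale, was smaller than the probe-level SD. Both calls were lost with equal medians (log2 ratios -0.94 at 2 h and -0.75 at 4 h) and with quantile normalization (-0.95 and -0.76), and the one at 4 h also with an offset of 50 (-0.97). Zfp36l1 had signals of 883, 588 and 514, a log2 ratio of -0.59 at 2 h, and its second probe set had 360, 284 and 315. The log2 ratios at 4 h were -0.78 and -0.19 for the 2 Zfp36l1 probe sets, the smaller of them inside the probe-level SD. On the brightest probe sets, Zfp36l2 was thus lower at each later time, Zfp36 was lower at 2 h with little difference after it, and Zfp36l1 was less than 2-fold lower throughout.

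**Figure D2:**
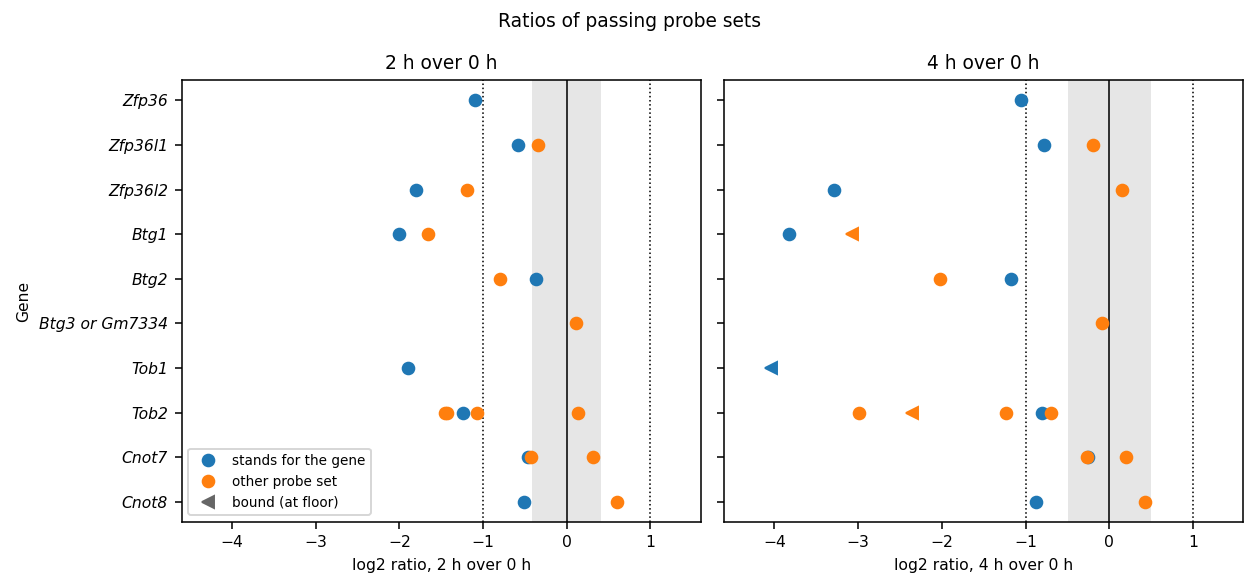
log2 ratio to 0 h at 2 h (left) and at 4 h (right) for each passing probe set, 1 row per gene, with dotted lines at 2-fold and a grey band of 1 probe-level SD (0.40 and 0.48). Blue marks the probe set that stands for the gene, orange the others and triangles a bound, and the 5 Tob2 probe sets at 4 h run between -2.99 and -0.70.

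Of the Btg genes, Btg1 was far below its 0 h signal and Btg2 less so. Btg1 had signals of 1476, 369 and 104, a 4.00-fold lower signal after 2 h and a 14.1-fold lower one after 4 h (log2 ratio -3.82). Its second passing probe set was also lower at each step, with 842, 266 and 49.3, or 3.17-fold lower after 2 h and at least 8.42-fold lower after 4 h, where it was under the floor. At 4 h the Btg1 ratio had rank 17 from the lowest of 9723 genes, and at 2 h rank 70.

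Btg2, a p53 target gene in other settings, was not higher on either array after doxorubicin. Its probe sets had signals of 898, 694 and 397, and of 573, 329 and 141. The brighter was 1.29-fold lower at 2 h, inside the probe-level SD, and 2.26-fold lower at 4 h, while the dimmer was 1.74-fold and 4.06-fold lower. Both probe sets were below 0 h at 2 h and further below at 4 h. On the brighter one the second interval (log2 ratio -0.81) was larger than the first (-0.37), the reverse of Zfp36. With equal medians the ratio at 4 h was -0.87 and with quantile normalization -0.90, short of 2-fold.

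Btg3 could not be read on its own, because its 1 probe set is annotated to both Btg3 and Gm7334. That probe set had signals of 5541, 5977 and 5198, and its log2 ratios, 0.11 at 2 h and -0.09 at 4 h, were inside the probe-level SD at both times. It entered no count.

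Tob1, which also binds the poly(A)-binding protein, was the lowest gene of the set at 4 h. It had signals of 1646, 443 and 92.8, which is 3.71-fold lower after 2 h. At 4 h it was under the floor and so at least 16.5-fold lower. The second interval, at least 4.43-fold, was no smaller than the first. Its rank from the lowest was 86 at 2 h and 14 at 4 h, counting it at the floor. The value rests on 1 probe set, since the other Tob1 probe set was under the floor on all arrays.

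Tob2, the paralog of Tob1, was lower at 2 h on 4 of its 5 probe sets, but these parted afterwards. The probe set that stands for the gene had signals of 898, 379 and 516, 2.37-fold lower at 2 h and 1.74-fold lower at 4 h. A neighbouring one had 898, 332 and 381, and it likewise was no lower at 4 h than at 2 h. The probe sets with names ending in _x_at and _s_at, which by the array's naming may bind more than 1 transcript, had 1118, 534 and 141 and 511, 186 and 93.7. These went on declining, to 7.92-fold lower and at least 5.11-fold lower at 4 h. The fifth, at 413, 452 and 255, was at 0.13 at 2 h and -0.70 at 4 h. All 5 were below their 0 h signal at 4 h, with an SD over probe sets of 1.01. Taking the mean over probe sets gave a log2 ratio at 4 h of -1.61 in place of -0.80, and a 4 h to 2 h ratio of -0.60 in place of 0.44. Direction after 2 h is therefore not settled for Tob2.

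**Figure D3:**
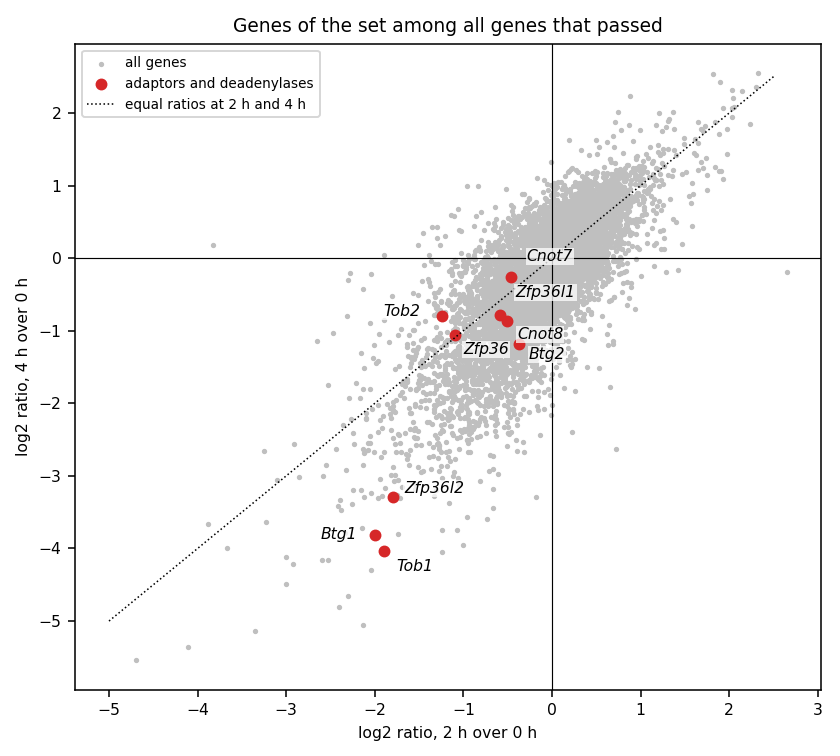
log2 ratio at 4 h against log2 ratio at 2 h, both over 0 h, for the 9723 genes that passed (grey) and the 9 genes of the set (red), with a dotted line where both ratios are equal. Tob1 (placed at the floor), Btg1 and Zfp36l2 lie well under the line near the lower edge of the cloud, Zfp36 lies on it, and Tob2 above it. The 2 axes share the 0 h array.

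The catalytic subunits Cnot7 and Cnot8 were within 2-fold of their 0 h signal on every probe set at both times. Cnot7, a deadenylase of the Caf1 type, had signals of 1664, 1208 and 1394 on its brightest probe set, or -0.46 at 2 h and -0.26 at 4 h as log2 ratios. Its other probe sets had 645, 805 and 738, and 587, 435 and 486, so that 1 of 3 was above 0 h at both times. Ratios over the 3 probe sets ran between -0.27 and 0.19 at 4 h, all inside the probe-level SD, and the sign at 4 h turned with equal medians (0.05).

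For Cnot8, the paralog of Cnot7, the 2 probe sets went opposite ways. One had signals of 2000, 1409 and 1092, 1.83-fold lower at 4 h, and the other 1050, 1595 and 1407, 1.34-fold higher. Their log2 ratios were -0.51 and 0.60 at 2 h and -0.87 and 0.42 at 4 h. The mean over both was 0.05 at 2 h and -0.23 at 4 h. No direction can be given for Cnot8 from these probe sets.

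**Figure D4:**
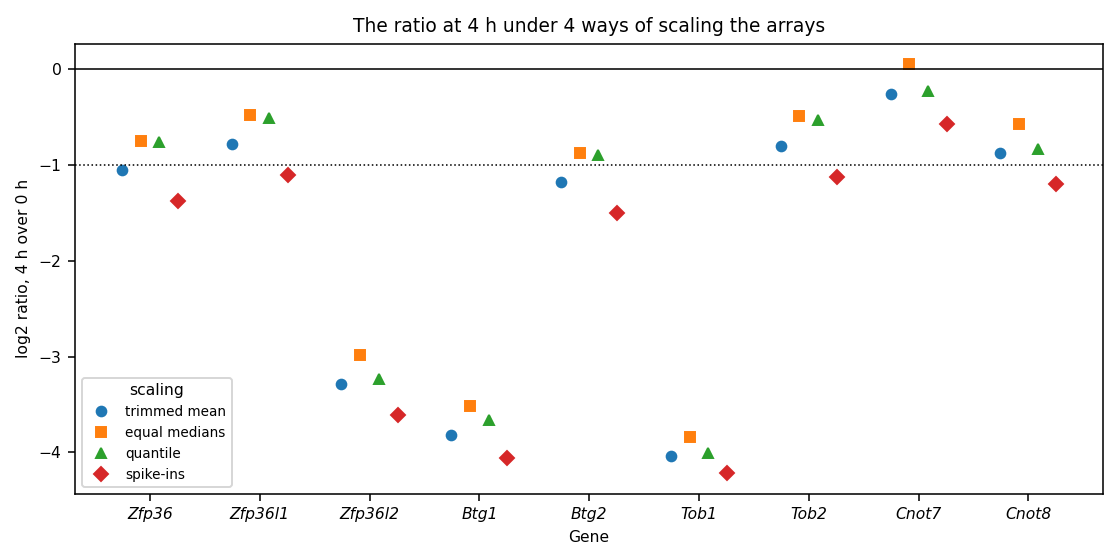
log2 ratio at 4 h over 0 h of the 9 genes under 4 ways of scaling the arrays, with a dotted line at 2-fold lower. Tob1, Btg1 and Zfp36l2 stay far below the line in each, Zfp36 and Btg2 are above the line with equal medians and quantile normalization, Zfp36l1, Tob2 and Cnot8 are below it with spike-in scaling alone, and Cnot7 lies between -0.58 and 0.05. With the trimmed mean Tob1 is at the floor at 4 h, and the other scalings can move a gene onto or off the floor.

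Scaling moved the median of all genes. The median log2 ratio of all genes at 4 h was -0.07 here, 0.24 with equal medians, 0.05 with quantile normalization and -0.39 with spike-in scaling, and at 2 h it was -0.01, 0.14, 0.03 and -0.23. Lower genes made up 86.1% of the calls at 4 h here, 54.3% with equal medians, 69.7% with quantile normalization and 97.1% with spike-ins. In the same order the shares at 2 h were 80.1%, 61.6%, 63.2% and 92.8%, and those of the 4 h to 2 h ratio 86.5%, 66.3%, 72.8% and 92.6%. The 9 members had a median log2 ratio of -1.06 at 4 h and of -1.09 at 2 h.

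Most genes of the set are compact, while Cnot7 and Cnot8 are longer than the median gene. By RefSeq annotation of GRCm38.p6 their genomic span had a median of 5734 bases, against 23251 bases for 9710 genes that passed the filter, and 6 of the 10 were under the lower quartile of 10001 bases. Zfp36 (chromosome 7, 28376784 to 28379228) was the shortest at 2445 bases. Zfp36l2 spans 4024 bases on chromosome 17 (84183924 to 84187947), Btg2 4291 on chromosome 1 (134074865 to 134079155), Zfp36l1 5254 on chromosome 12 (80107760 to 80113013), Tob1 5654 on chromosome 11 (94209842 to 94215495) and Btg1 5813 on chromosome 10 (96617001 to 96622813). The longer genes were Tob2 at 10057 bases on chromosome 15 (81848270 to 81858326), Btg3 at 17322 on chromosome 16 (78359860 to 78377181), Cnot7 at 23310 on chromosome 8 (40492538 to 40515847) and Cnot8 at 25804 on chromosome 11 (58092794 to 58118597). The 3 lowest genes at 4 h all lay among the 6 shortest, as did Zfp36l1, which was not 2-fold lower. A relation of span to signal over all genes was not tested.

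By the pair of log2 ratios for 0 to 2 h and 2 to 4 h, the genes nearest to Btg1 among 9574 genes above the floor on all arrays were Sox10, Zfp36l2 and Cebpb. Their distances were 0.29, 0.39 and 0.42 on the log2 scale. Sox10, which directs melanocyte and neural crest fate, read 11710, 2640 and 892, and Cebpb, a basic leucine zipper transcription factor, 2395, 579 and 122. Nearest to Cnot7 were Il1f6, Gtf2ird2 and Hrk, at distances of 0.013, 0.015 and 0.016, all with signals between 220 and 407. These Cnot7 distances are far below the probe-level SD, and another Cnot7 probe set had a log2 ratio of 0.32 at 2 h. No likeness to Cnot7 is therefore read from them.

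Other genes of the mRNA decay pathway were read as lists. Among 8 further Ccr4-Not subunits that passed, 1 was lower by 2-fold or more at 2 h (5.69% of all genes) and 2 at 4 h (14.4%). None was higher by that much, and the median log2 ratio at 4 h was -0.26. Cnot2, a scaffold subunit, had signals of 1316, 991 and 545 and a ratio of -1.27 ± 0.64 at 4 h (SD over 4 probe sets). Cnot11 had 3016, 2015 and 1347, at -1.16 ± 1.21 (SD over 2 probe sets). At the other end, the deadenylase Cnot6 had 2989, 3006 and 4617, at 0.63 ± 0.28 (SD over 4 probe sets), and its paralog Cnot6l 839, 861 and 852. Cnot1, the main scaffold, shares its probe sets with Gm6158 and was not read.

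None of 9 other deadenylase and poly(A) tail genes was 2-fold different at 2 h or 4 h, and their median log2 ratio at 4 h was 0.27. Of all genes, 5.69% were 2-fold lower and 1.41% higher at 2 h, and 14.4% and 2.32% at 4 h. Pan2 (log2 ratio 0.59) and Paip2 (0.51) were highest and Pan3 (-0.33 ± 0.74, SD over 2 probe sets) and Paip1 (-0.10) lowest. Pan2 and Pan3 form the other main cytoplasmic deadenylase, and the Paip proteins bind the poly(A)-binding protein. Among other RNA-binding proteins that recruit decay factors, 1 of 11 genes was at least 2-fold lower at both times. The matching shares of all genes were 5.69% at 2 h and 14.4% at 4 h, and the list median was -0.49 at 4 h. The lowest was Tnrc6a, a scaffold of microRNA silencing, with signals of 3206, 1596 and 1443 and a ratio of -1.15 ± 0.34 (SD over 7 probe sets), followed by the Pumilio protein gene Pum2 at -0.85 ± 1.18 (SD over 3 probe sets). The Roquin gene Rc3h2 at 0.37 and Hnrnpd at 0.20 were highest.

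In the decapping list of 13 genes, 1 passed 2-fold lower at 2 h (5.69% of all genes) and 2 did so at 4 h (14.4%). The median at 4 h was 0.07. The decapping cofactor Dcp1a had signals of 344, 163 and 143 (log2 ratio -1.26 at 4 h) and Patl1 1771, 1280 and 755 (-1.23). The helicase Ddx6 (0.89 ± 0.50, SD over 4 probe sets) and Lsm4 (0.75) were highest. Of 13 exosome and Ski complex genes 1 was 2-fold lower at 4 h (14.4% of all genes), Exosc3 at -1.20, and the median was -0.01. Next lowest was Exosc1 at -0.79, and Exosc9 (0.48) and Ttc37 (0.32) were highest. Partners and kinases of the adaptors had no call among 10 genes at 2 h or 4 h and a median of 0.08. Of all genes, 5.69% were called lower and 1.41% higher at 2 h, and 14.4% and 2.32% at 4 h. Mapk14, the p38 kinase whose pathway acts on Zfp36, was lowest at -0.79 ± 0.49 (SD over 4 probe sets). Ppp2ca came next at -0.33 ± 0.69 (SD over 2 probe sets). Elavl1, an mRNA-stabilising protein, was highest at 0.39, then Ywhaz at 0.37.

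Reported mRNA targets of the Zfp36 family had values at both ends. Only 10 of 20 listed genes passed the filter. Of these, 4 were lower by 2-fold or more at 2 h (5.69% of all genes), 5 at 4 h (14.4%), and none higher by that much. The early response gene Ier3 had signals of 3095, 388 and 138, 22.4-fold lower at 4 h, and Myc 1613, 109 and 128, 12.6-fold lower. Mcl1, Fos and Bcl2 were named after their values were seen, as the remaining lower genes. The survival gene Mcl1 had 2331, 676 and 277, at a log2 ratio of -3.07, with Fos at -1.70 and Bcl2 at -1.60. For Mcl1 and Bcl2 these are the brightest of 6 and 3 passing probe sets, and the spread over them is not given. Hif1a (0.67 ± 0.25, SD over 3 probe sets) and the chemokine gene Cxcl1 (0.51 ± 0.12, SD over 2 probe sets) were highest. The median of the list at 4 h was -0.62, against -0.07 for all genes, and no gene lay between -1.60 and 0.36. Protein levels and decay rates were not measured.

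**Figure D5:**
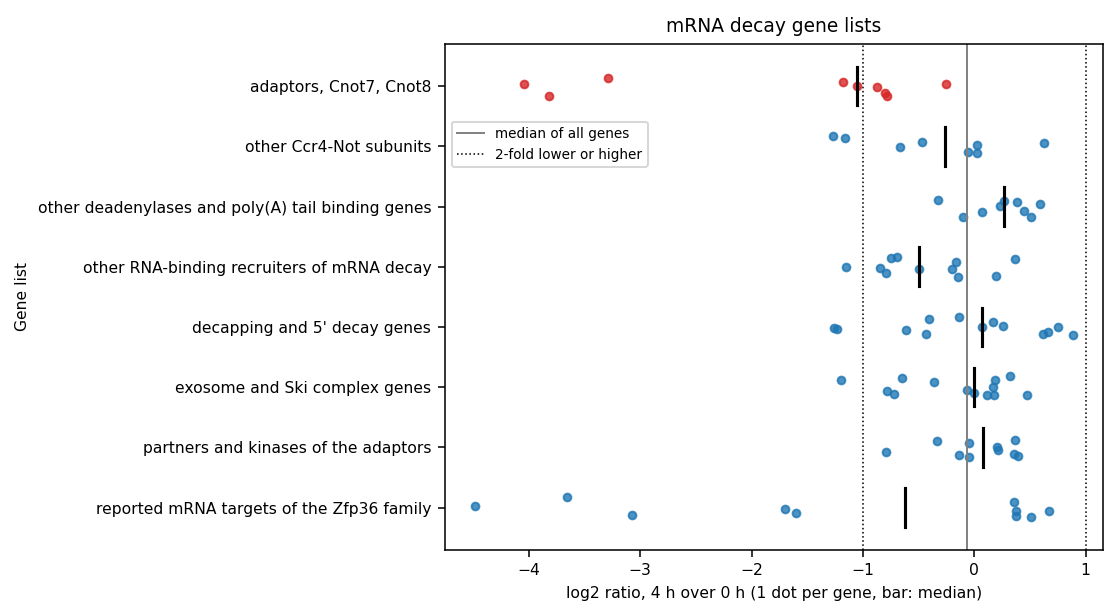
log2 ratio at 4 h over 0 h of each gene that passed the filter (dots) in the set (red) and in 7 lists of mRNA decay genes (blue), with black bars at list medians and a grey line at the median of all genes. Apart from the set and the reported Zfp36 family targets, no gene of these lists lies below -1.27. Tob1 is drawn at its floor value.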

How the data were processed

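The authors deposited 1 linear intensity per probe set and array, and a 2% trimmed mean of 150.0 on each array shows that they had been scaled. Per the submitters' processing notes GCOS 1.4 was used. Its signal algorithm is not stated in the labels. The array design and fluidics modules are per the file headers. Arrays were assigned to time points by title, with 1 array each, so no difference between times was tested, and the number of arrays limits the precision.

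Arrays were then brought to a common trimmed mean of 500 and transformed to log2 above a floor of 100. Probe sets passed at a mean log2 signal of at least that of 200. Of 35890 annotated probe sets, 932 name several genes and stand for none. The 64 control probe sets on the array were left out, only some of which carry an annotation. Those with 1 symbol were then 34945, with symbols updated by Entrez ID to RefSeq GRCm38.p6 for 34741. This left 15785 probe sets and 9723 genes, each represented by its brightest passing probe set.

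The members and all gene lists were chosen with earlier results of these data known. The genes named were all members with every probe set, the 2 highest and 2 lowest passing genes of each list at 4 h, the 3 brightest markers of each cell type, and the 3 genes nearest in both steps to the lowest and highest members above the floor on every array. Any further gene is marked in the text as picked on its values. Alternatives were equal medians, quantile normalization, spike-in scaling, floors of 50 and 200, an offset of 50, a filter of 400 or none, the mean over probe sets and leaving out suffixed probe sets. The script that makes the calls was checked on simulated data with large changes planted in bright genes only. That check does not cover signals near the floor or ratios near the 2-fold cut. Python 3.11.15, numpy 2.4.6, pandas 2.3.3 and matplotlib 3.10.9 were used.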

Additional observations from a re-analysis of the deposited data

How the results depend on the processing

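The number of members at least 2-fold lower at 4 h was 5, against 14.4% of all genes. It was 3 with equal medians (8.95% of all genes), 3 with quantile normalization (10.2%) and 8 with spike-in scaling (22.7%). An offset of 50 gave 4 (12%), a filter of 400 gave 4 of 8 (11.3%) and the mean over probe sets gave 6 (14.3%). Without suffixed probe sets it was 3 of 6 (15.2%), a setting that leaves Zfp36, Btg1 and Cnot7 with no passing probe set. At 2 h the number was 5, against 5.69% of all genes. It was 4 with equal medians (3.81% of all genes) and 4 with quantile normalization (4.12%). A filter of 400 gave 4 of 8 (3.47%), and leaving out suffixed probe sets gave 3 of 6 (6.17%). The cause of the shifts with scaling was not tested. The shares of all genes given above for the members at 4 h also stand beside the list counts that follow. Among the lists at 4 h, equal medians gave 0 lower genes for the other Ccr4-Not subunits, the RNA-binding recruiters, the decapping list and the exosome list. Equal medians also gave 2 higher genes in the decapping list, against 7.53% of all genes. Quantile normalization gave 1 lower decapping gene and 0 lower exosome genes. Spike-in scaling gave 5 lower RNA-binding recruiters, 3 lower exosome genes and 1 lower gene among partners and kinases. A floor of 200, at which every probe set passes the filter, gave 1 lower decapping gene of 14, against 7.17% of all genes. A filter of 400 gave 1 of 11. The mean over probe sets gave 2 lower exosome genes. Without suffixed probe sets 1 of 7 other Ccr4-Not subunits and 0 of 10 RNA-binding recruiters were lower. Reported Zfp36 family targets had 3 of 6 genes lower with a filter of 400 and 3 of 6 without suffixed probe sets, beside 5 of 10 in the main setting. Their median was 0 with no filter and 0 with a floor of 200, where undetected genes are counted at the floor. A ratio or median was said to move if it shifted by the probe-level SD or more, and a count if it changed by more than a fixed factor. In the 528 recomputed values no called ratio of a member changed sign, 24 counts or medians and 11 ratios of single members moved, and 246 and 247 did not. Floors and filters leave the ratio of a bright probe set unchanged, so many could not move. Zfp36 lost its call with equal medians and is among the unmoved. These tallies therefore do not measure robustness. The ratios that moved were those of Btg1 and Tob1 with a higher floor or, for Btg1, an offset, and those of Zfp36l2, Tob2 and Cnot8 with the mean over probe sets. No paired analysis was possible because each time point is 1 array. Signal near the floor limits Tob1 and Btg1 at 4 h, so their ratios there bound the difference from below or nearly so.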

Other observations

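The probe sets of Zfp36l2, Btg1 and Tob1 that were under the floor on every array entered no ratio, and their scaled signals are given here as values. The dim Btg1 probe set had 78.9, 20.3 and 8.32 at 0, 2 and 4 h, the dim Tob1 probe set 61.4, 38.2 and 8.75, and the dim Zfp36l2 probe set 51.1, 36.9 and 23.8. Each was highest at 0 h and lowest at 4 h, as was the median over all probe sets (154, 136 and 126). How often such dim probe sets show this order was not computed, so nothing is read from it.

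Of the 20 passing probe sets that belong to members alone, 17 were below their 0 h signal at 2 h and 17 at 4 h. The matching number for the whole array was not computed, so nothing is read from the 17. All genes together had a slightly negative median log2 ratio, -0.01 for 2 h and -0.07 for 4 h. Among the 20 member probe sets, those at least 2-fold lower were 10 at 2 h and 10 at 4 h, against 5.68% and 13.9% of the 15785 passing probe sets. These are counts over probe sets, which share genes and arrays, and the genes were chosen on these arrays.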
